A study of Mus musculus with 2 samples.

Results

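Gadd45a, Gadd45b, Gadd45g, Cdkn1a, Cdkn1b, Cdkn1c, Btg1, Btg2, Btg3 and Mdm2 are 10 genes that hold back cell division or regulate the p53 response. They were examined in the liver after an injury to the kidneys. The members were chosen by name, with earlier results of these data known. Every probe set that the platform annotation gives to a listed symbol was taken. Of the 10 genes, 9 had a probe set annotated to that gene alone, among 18193 genes so named on the array. They have 18 such probe sets of 45101 in all. A single probe set carries both Btg3 and the transcribed pseudogene Gm7334, and is described separately.

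The study compared livers of female wild-type C57BL/6 mice, 8 weeks old, 24 h after surgery. The sham group had a sham operation, and the acute kidney injury (AKI) group had 30 min of warm ischemia of both kidneys followed by reperfusion. In each group frozen liver (100 mg per the labels) from 3 mice was pooled and measured on 1 Affymetrix array, so there were 2 arrays in all. Neither group has a replicate, the spread between mice cannot be estimated, and no difference below has a p-value. "Higher" and "lower" describe these 2 pools.

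Gadd45 proteins are small stress-induced proteins that bind PCNA, the CDK1-cyclin B complex and the kinase MAP3K4. The Cdkn1 genes encode the CDK inhibitors p21, p27 and p57, which bind cyclin-CDK complexes and hold cells before DNA replication. Btg proteins recruit the CCR4-NOT deadenylase, which shortens the poly(A) tails of mRNAs, and slow proliferation. Mdm2 is the ubiquitin ligase that degrades p53 and is itself a p53 target gene, as are Cdkn1a, Gadd45a and Btg2. In the adult liver most hepatocytes are quiescent, and several of these genes are known to respond within hours to stress, cytokines and hormones.

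Expression of Cdkn1a, Gadd45a, Gadd45g, Btg1 and Btg2 was much higher in the AKI pool, by 2.63 to 4.25 on the log2 scale. Gadd45b, Mdm2 and Cdkn1b were within 2-fold at the probe set that stands for the gene. Both other probe sets of Gadd45b were past 2-fold upwards, at 1.84 and 2.05, as was 1 other of Mdm2, at 2.07. Cdkn1c was lower, by less than 2-fold on this scale. Each difference is log2(signal + 71.8) after AKI minus the same after sham surgery, where the added constant makes differences of weak signals look smaller. Each gene is represented by its probe set of highest mean log2 level. It was counted where that probe set reached the array's median signal (225.7 sham, 231.8 AKI) in at least 1 pool, and all 9 did. Gadd45a and Cdkn1b did so only on the AKI array and Cdkn1c only on the sham array. At least 2-fold higher were 5 of the 9 genes and at least 2-fold lower were 0. Among all 13128 genes past this filter, 10.4% passed 2-fold upwards and 12.5% passed it downwards. All 5 were also at least 4-fold higher, against 2.09% of all genes. Gadd45a, Cdkn1a and Btg1 were at least 8-fold higher, against 0.548%. Gadd45a had to differ to pass the filter, since its sham signal of 77.6 was far below it, and without it 4 of 8 genes were at least 2-fold higher. With a filter on the mean log2 level of both arrays, 5 of 8 genes passed 2-fold upwards, against 8.88% of all genes. A high signal in 1 pool also raises this mean, so Gadd45a still passed through its AKI signal. The median difference of the 9 genes was 2.63 and that of all genes was -0.02.

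**Figure D1:**
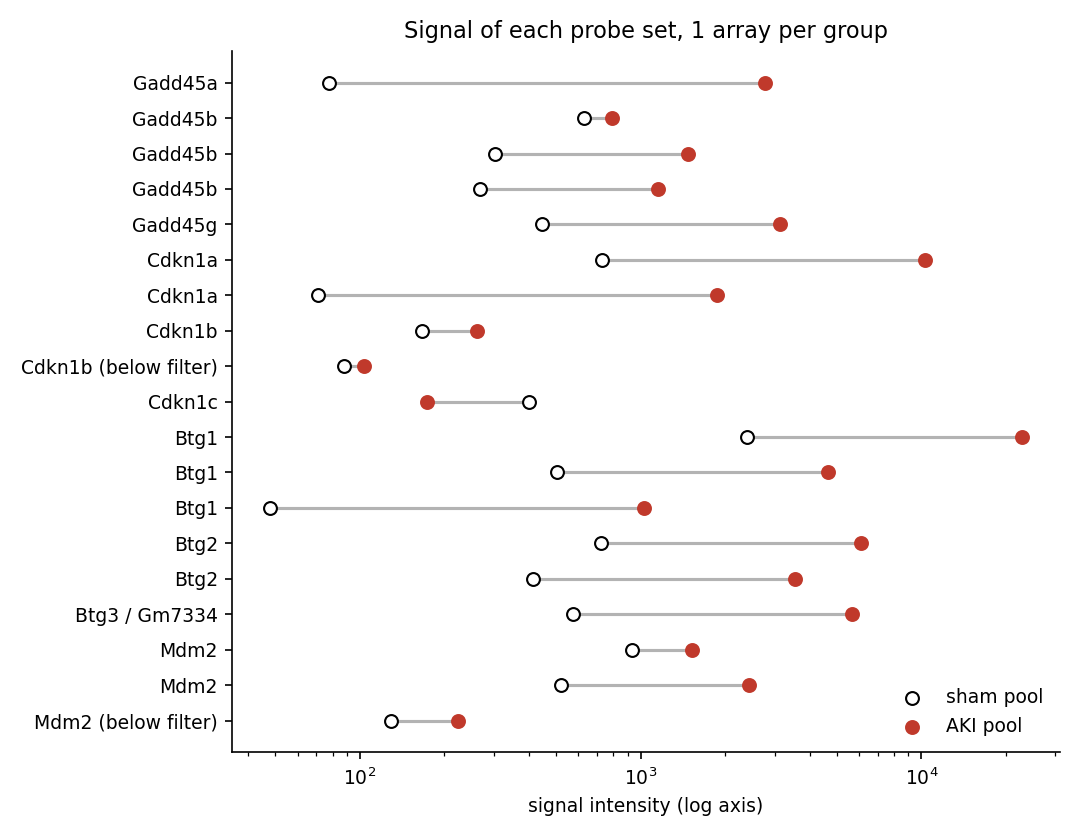
Signal intensity on a log axis of the 18 probe sets of the 9 genes and of the probe set shared by Btg3 and Gm7334, with the sham pool as open circles and the AKI pool as filled circles, 1 array each. The AKI circle lies to the right in every probe set except that of Cdkn1c (401.1 sham, 173.8 AKI).

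**Figure D2:**
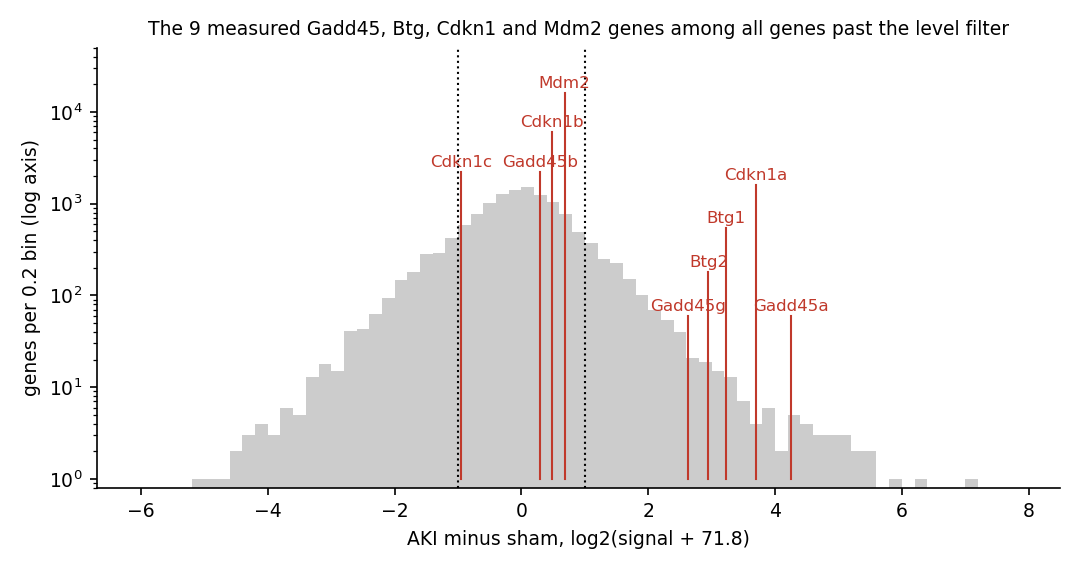
Histogram of the AKI minus sham difference of the 13128 genes past the level filter, with the number of genes per bin on a log axis, red lines at the 9 genes (their heights only separate the names) and dotted lines at 2-fold. Gadd45g, Btg2, Btg1, Cdkn1a and Gadd45a lie in the right tail from 2.63 to 4.25, and Cdkn1c, Gadd45b, Cdkn1b and Mdm2 lie between the dotted lines.

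A further probe set of a gene is the one repeat measurement available here. In the 5149 genes with several probe sets past the filter, the pooled SD of the difference between probe sets of one gene was 0.70. It was 0.90 in the lowest of 4 level classes of genes and 0.66 in the highest. This spread covers probe and transcript differences and leaves out the animals. Relative to the SD of its own level class, the difference was 5.72 SD for Gadd45a, 5.64 for Cdkn1a, 4.91 for Btg1, 4.51 for Btg2 and 3.84 for Gadd45g. For Cdkn1c (-1.05), Mdm2 (0.99), Cdkn1b (0.54) and Gadd45b (0.43) the difference was about as large as this spread or smaller. For Mdm2 and Gadd45b this holds only at the probe set that stands for the gene. Other probe sets of Gadd45b were at 1.84 and 2.05, and another of Mdm2 was at 2.07.

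Cdkn1a encodes p21, the CDK inhibitor through which p53 arrests the cell cycle. The signal of its main probe set was 728 after sham surgery and 10305.1 after AKI. The other probe set went from 71 to 1873. Both were far higher in the AKI pool, with differences of 3.70 and 3.77. The signal ratios, AKI over sham, were 14.2 and 26.4, the second from a weak sham signal. Only 0.274% of genes past the filter had a larger difference than Cdkn1a. RefSeq gives Cdkn1a 2 transcription starts 2790 bases apart, and the 250 bases before each are shown because the 2 differ in composition and in the motifs they hold. Both are read 5′ to 3′ on the gene's strand, from RefSeq on build GRCm38.p6. Capitals mark matches to the p53 half-site, the decamer that p53 binds in pairs, in the upstream window. The downstream window holds none of the motifs set in capitals in these listings, and the array values name no build or transcript start, so the signal cannot be assigned to either start.
Cdkn1a, chr17:29090729-29090978, plus strand: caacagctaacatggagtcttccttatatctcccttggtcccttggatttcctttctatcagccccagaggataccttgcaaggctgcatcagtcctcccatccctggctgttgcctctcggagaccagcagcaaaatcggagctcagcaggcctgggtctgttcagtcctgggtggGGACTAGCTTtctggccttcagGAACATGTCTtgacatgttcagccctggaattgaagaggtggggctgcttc
Cdkn1a, chr17:29093519-29093768, plus strand: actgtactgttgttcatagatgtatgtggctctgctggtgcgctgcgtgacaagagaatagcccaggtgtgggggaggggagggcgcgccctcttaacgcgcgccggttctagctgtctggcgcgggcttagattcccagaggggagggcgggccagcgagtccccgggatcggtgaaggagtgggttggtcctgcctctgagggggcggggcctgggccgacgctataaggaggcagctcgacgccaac
The upstream window held 2 half-site matches, GGACTAGCTT from 73 to 64 bases and GAACATGTCT from 51 to 42 bases before the start. It had 2 CpG dinucleotides and 54.0% G+C, whereas the downstream window had 19 and 64.8%. A p53 half-site was found in 7.13% of all 32851 promoter windows of this length, on either strand.

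Its 2 relatives did not share this difference. Cdkn1b encodes p27, which keeps resting cells out of the cycle and is controlled largely through protein turnover. Its main probe set read 166.9 after sham surgery and 261.7 after AKI, a difference of 0.48, and its other probe set, below the filter on both arrays, read 87.5 and 103.1. Cdkn1c encodes p57, an imprinted CDK inhibitor best known from development. Its single probe set read 401.1 and 173.8, a difference of -0.95 and a signal ratio, sham over AKI, of 2.31. This was the one gene of the 9 with a lower value after kidney injury. The difference of Cdkn1a exceeded that of Cdkn1b by 3.22 and that of Cdkn1c by 4.64, several times the spread between probe sets. These gaps have no test, and the low signals of Cdkn1b and Cdkn1c leave them the least precise.

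Gadd45a is the p53-responsive member of its family and also a target of FoxO factors and ATF4. Its single probe set read 77.6 after sham surgery and 2778 after AKI. The difference of 4.25 was the largest of the 9 genes on this scale. The sham signal lay close to the table's 25th percentile and was not shown to be above background, so the size and rank are uncertain. The difference was 3.30 with a pseudocount of 228.7 and 5.14 with a pseudocount of 1. Gadd45g, a cytokine-induced member that is often silenced in tumours, read 446.7 and 3141.3, a difference of 2.63 with a signal ratio of 7.03. It too has 1 probe set, so neither gene has a repeat measurement. Gadd45a exceeded Gadd45g by 1.62 in difference.

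Gadd45b, induced by NF-kB and TGF-beta signalling and protective against cell death in the liver, gave a split result. The probe set with the highest mean log2 level read 630.9 after sham surgery and 789.6 after AKI, a difference of 0.29. A further probe set read 303.7 and 1481.3, a difference of 2.05. The last read 269 and 1150.7, a difference of 1.84. All 3 were higher in the AKI pool, but 2 of them by more than 3-fold and 1 by less than 2-fold. The first and second probe sets had almost the same mean log2 level, 9.60 and 9.58, so the value that stands for the gene turns on a small margin. When the probe set with the highest mean signal was taken instead, Gadd45b was at 2.05. Of the 3, the platform annotation lists an accession for the probe set at 2.05 alone.

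The promoters of the Gadd45 genes are shown because the 3 paralogs differ in the motifs next to their starts. Each line gives the 250 bases before the start, from RefSeq on GRCm38.p6. Capitals mark the E-box CACGTG, the CCAAT box CCAAT, the TATA box TATAAA and the p53 half-site, on either strand.
Gadd45a, chr6:67037408-67037657, minus strand: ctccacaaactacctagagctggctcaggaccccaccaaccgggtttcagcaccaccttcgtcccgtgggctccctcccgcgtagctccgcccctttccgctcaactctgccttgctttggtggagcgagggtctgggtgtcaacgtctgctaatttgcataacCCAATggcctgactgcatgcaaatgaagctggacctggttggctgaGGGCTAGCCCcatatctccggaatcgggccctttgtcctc
Gadd45b, chr10:80929841-80930090, plus strand: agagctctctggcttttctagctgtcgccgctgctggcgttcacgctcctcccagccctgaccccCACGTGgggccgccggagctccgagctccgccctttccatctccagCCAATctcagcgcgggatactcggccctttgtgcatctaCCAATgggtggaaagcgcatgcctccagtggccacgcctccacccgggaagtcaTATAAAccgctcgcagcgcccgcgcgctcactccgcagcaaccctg
Gadd45g, chr13:51846425-51846674, plus strand: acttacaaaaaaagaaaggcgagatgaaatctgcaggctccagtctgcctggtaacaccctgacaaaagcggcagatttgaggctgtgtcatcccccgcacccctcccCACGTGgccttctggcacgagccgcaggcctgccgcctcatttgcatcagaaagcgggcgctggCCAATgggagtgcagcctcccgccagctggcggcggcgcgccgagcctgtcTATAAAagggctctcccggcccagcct
Gadd45b and Gadd45g each held an E-box, a CCAAT box and a TATA box, with the TATA box from 46 to 41 bases and from 27 to 22 bases before the start. Gadd45a held a CCAAT box and a p53 half-site match, GGGCTAGCCC, from 40 to 31 bases before the start. Among all promoter windows, 6.02% held the E-box, 33.8% the CCAAT box and 12.4% the TATA box.

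Btg1 and Btg2 encode closely related antiproliferative proteins. Btg1 is typically highest in resting cells and Btg2 is an immediate early gene induced by growth factors and p53. The main probe set of Btg1 read 2388.7 after sham surgery and 22859.7 after AKI. Its others went from 503.9 to 4648.2 and from 47.9 to 1030.6. The 3 probe sets of Btg1 gave differences of 3.22, 3.04 and 3.20. The sham signal of 47.9 is below the added constant, and the signal ratios without it were 9.57, 9.22 and 21.5, so the closeness of the third difference to the others depends on the scale. For Btg2 the probe sets read 723.1 and 415.4 after sham surgery, and 6087.6 and 3555 after AKI. They gave differences of 2.95 and 2.90, with signal ratios of 8.42 and 8.56. Btg1 and Btg2 differed from each other by 0.27, less than the spread between probe sets. Larger differences were found in 0.419% of genes for Btg1 and in 0.587% for Btg2.

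Btg3 could not be measured on its own. The probe set annotated to Btg3 and Gm7334 read 572.3 after sham surgery and 5678.4 after AKI, a difference of 3.16 with a signal ratio of 9.92. It was as high as the probe sets of Btg1 and Btg2 in its difference, but the share of each transcript in the signal is unknown, and it was left out of all counts. The promoters of Btg1 and Btg2 are shown because they hold elements of the cAMP response type near the start. Capitals mark the cAMP response element TGACGTCA or its half-site TGACG, the CCAAT box, the TATA box and, in Btg1, the FoxO element GTAAACA, on either strand.
Btg1, chr10:96616751-96617000, plus strand: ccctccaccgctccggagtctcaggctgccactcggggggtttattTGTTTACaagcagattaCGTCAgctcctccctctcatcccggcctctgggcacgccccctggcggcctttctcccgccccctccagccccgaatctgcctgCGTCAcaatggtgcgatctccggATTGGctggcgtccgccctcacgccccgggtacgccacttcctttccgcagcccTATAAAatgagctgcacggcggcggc
Btg2, chr1:134079156-134079405, minus strand: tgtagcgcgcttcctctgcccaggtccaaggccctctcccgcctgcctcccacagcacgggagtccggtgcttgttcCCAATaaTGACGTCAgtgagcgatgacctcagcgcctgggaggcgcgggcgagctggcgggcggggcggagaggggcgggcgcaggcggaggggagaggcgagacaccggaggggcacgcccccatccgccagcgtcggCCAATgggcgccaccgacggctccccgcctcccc
Btg2 held the full element TGACGTCA from 166 to 159 bases before its start, present in 1.55% of all promoter windows. Btg1 held half-sites from 187 to 183 and from 103 to 99 bases, a FoxO element from 204 to 198 bases and a TATA box from 26 to 21 bases before its start. The half-site, which also lies within the full element, was present in 17.8% of windows and the FoxO element in 3.17%. The search also covered the GC box GGGCGG (32.7% of windows), the STAT site TTCNNNGAA (7.02%), the glucocorticoid half-site AGAACA (16.1%), the CArG box (1.47%) and the NF-kB site (3.9%). The 9 genes with a promoter entry (all except Cdkn1c) have 11 windows, whereas the shares count single windows. Of these genes, 8 held a GC box and 1, Btg3, an NF-kB site. No entry held the STAT, glucocorticoid or CArG letters. A p53 half-site was found in 3 genes, Cdkn1a, Gadd45a and Mdm2, and a FoxO element in 2, Btg1 and Mdm2. These are matches of letters in a short window and not measured binding.

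Mdm2 encodes the ubiquitin ligase that limits p53, and it also gave a split result. The probe set that stands for the gene read 928.7 after sham surgery and 1528.3 after AKI, a difference of 0.68. Another read 521 and 2425.1, a difference of 2.07. The last, below the filter on both arrays, read 129 and 223.6, a difference of 0.56. All 3 were higher in the AKI pool, and the more than 4-fold difference of the second was not shared by the others. The first and second had mean log2 levels of 10.31 and 10.25, and with the probe set of highest mean signal Mdm2 was at 2.07. Under that choice, 7 of the 9 genes were at least 2-fold higher, with 10.7% of all genes.

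Counted by probe set, 12 of the 18 were at least 2-fold higher in the AKI pool, against 9.56% of all 34945 probe sets with 1 gene symbol. Of the 18, 16 were past the filter, and several measure the same gene on the same 2 arrays. For Gadd45a, Gadd45g, Cdkn1a, Btg1 and Btg2 every probe set was at least 4-fold higher. In rank, the genes next to Gadd45a were Mrap (4.50), the transglutaminase gene Tgm2 (4.34), the lipid droplet gene Hilpda (4.25) and the metalloreductase gene Steap4 (4.23), among the 10948 genes with all probe sets in 1 direction. Those next to Cdkn1a were Zfp9 (3.76), Csrnp1 (3.75), the lubricin gene Prg4 (3.59) and Nfkbiz (3.55), which encodes an atypical IkB protein. Likeness here is the size of 1 difference over 2 arrays.

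Genes that work with these 10 went both ways or were lower. Their counts are to be read against the 10.4% of all genes at least 2-fold higher and the 12.5% lower. Of the Gadd45 partners and targets, 11 of 14 listed were measured past the filter, 0 were at least 2-fold higher and 3 (27.3%) lower. The lower genes were Map2k6 (-1.82), a kinase that activates p38, Gadd45gip1 (-1.15), whose product binds Gadd45 proteins, and the JNK gene Mapk9 (-1.08). Map2k6 and Gadd45gip1 were below the filter after AKI and were counted through the sham array only. The share of lower genes in this list is therefore not independent of the filter. Mapk9 had another probe set within 2-fold, at -0.72. Map3k4, the kinase that Gadd45 proteins activate, was at -0.61, and Pcna, the DNA polymerase clamp, at 0.86. Map3k4 and Mapk8 (0.23) were within 2-fold, but each had another probe set past it, at -1.35 and 1.45. The genes that deadenylate mRNA with Btg proteins, together with the Tob relatives, were mostly within 2-fold, at 12 of 14. Tob1 (-1.80), an antiproliferative relative of Btg1, read 5943.1 after sham surgery and 1658.1 after AKI, opposite in direction to Btg1 and Btg2. The deadenylase gene Cnot8 (-1.55) was also lower, so that 14.3% of this list was lower. Tob2, Cnot6 and Cnot6l were within 2-fold but each had another probe set at -1.26 to -1.12. Prmt1, the arginine methyltransferase that binds Btg1 and Btg2, was at 0.66.

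Among CDKs, cyclins, their regulators and the Rb family, the core cell cycle machinery on which p21 acts, 16 of 21 were measured past the filter, 5 (31.2%) were at least 2-fold lower and 1 (6.25%) higher. The lower genes were Wee1 (-2.71), a kinase that restrains CDK1, Cdk1 itself (-1.84), Rbl2 (-1.64), which encodes the p130 pocket protein of resting cells, cyclin D1, Ccnd1 (-1.61), and Cdk4 (-1.04). After AKI, Wee1, Cdk1, Rbl2 and Cdk4 read 180.7, 70.8, 193.1 and 194.6, below the filter. They were counted through the sham array only, so the share of lower genes is not independent of the filter. The 3 probe sets of Cdk4 spanned -2.15 to -0.56. Ccnd1 read 4512.1 after sham surgery and 1429.7 after AKI, and its 3 probe sets lay between -1.97 and -1.39. The higher gene was Cdc25c (1.66), which had a weak sham signal of 42.2 and was counted through the AKI array only. Ccne1 (0.13) and E2f3 (0.33) each had another probe set past 2-fold upwards, at 1.12 and 1.67. The INK4 inhibitors and Cdkn3 had 3 of 5 genes past the filter and none of these differed by 2-fold, with Cdkn2c at -0.88, Cdkn2d at 0.27 and Cdkn3 at 0.24. Proliferation genes had 12 of 18 past the filter, with Mcm4 (1.28) at least 2-fold higher and Tk1 (-2.48) lower. Tk1 read 136.7 after AKI and was counted through the sham array only. Mcm3 (0.44) had another probe set at -1.07. Mki67, the standard marker of dividing cells, was below the filter, at 38.7 and 203.5.

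In the machinery that degrades p21 and p27, Cks1b (2.42), the cofactor that lets SKP2 recognise p27, and the scaffold Cul1 (1.53) were at least 2-fold higher. Rbx1 (-1.58), Skp1 (-1.14) and Cdc20 (-1.05) were at least 2-fold lower, and Skp2 itself was at -0.03. Of the 7 genes of this list, all past the filter, 28.6% were thus higher and 42.9% lower. Skp1 and Cdc20 each had another probe set within 2-fold, at -0.77 and -0.94. Rbx1 and Cdc20 read 98.0 and 165.7 after AKI, below the filter, and were counted through the sham array only. Cks1b read 372.4 and 2313.6, with its other probe set at 2.08. Of the FoxO factors and the kinases around them, 9 of 10 genes were measured. Pik3r1 (2.46), a regulatory subunit of PI3-kinase, and Sgk1 (1.48) were higher and Foxo3 (-1.14) lower, which is 22.2% and 11.1% of the list. The probe sets of Pik3r1 spanned 0.57 to 2.46. Foxo4 (0.27) and Akt1 (-0.58) each had another probe set past 2-fold downwards, at -2.47 and -1.17.

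Other p53 target genes went both ways. Of 28 listed, 20 were measured past the filter, with a median of -0.14. Trp53inp1 (2.38), a stress-induced p53 target, and Phlda3 (1.16), an inhibitor of AKT, were at least 2-fold higher, and Plk3 (-2.45), a stress kinase, was lower. Plk3 read 61.5 after AKI and was counted through the sham array only. The death receptor gene Fas read 251.4 and 572.7, a signal ratio of 2.28, and fell just short of 2-fold only on the log2(signal + 71.8) scale. The other 17 targets, Fas among them, were within 2-fold on that scale, including Ccng1 (-0.26), Bbc3 (-0.46), Sesn1 (-0.09) and Zmat3 (0.56). Probe sets also split within this list. Tigar was at 0.80 with another probe set at 2.14, and Sesn2 at -0.16 with another at 1.28. At the probe sets that stand for the genes, 2 of 20 were at least 2-fold higher, a share near the 10.4% of all genes. Among p53 pathway regulators, 14 of 15 were measured, Chek1 (1.59) was higher, Pml (-1.71) was lower and Mdm4, the partner of Mdm2, was at 0.26. Chek1 had a weak sham signal of 75.1 and Pml a weak AKI signal of 58.8, so each was counted through 1 array only. Hipk2 (-0.80) and Usp7 (0.34) each had another probe set past 2-fold, at -2.24 and 1.16.

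**Figure D3:**
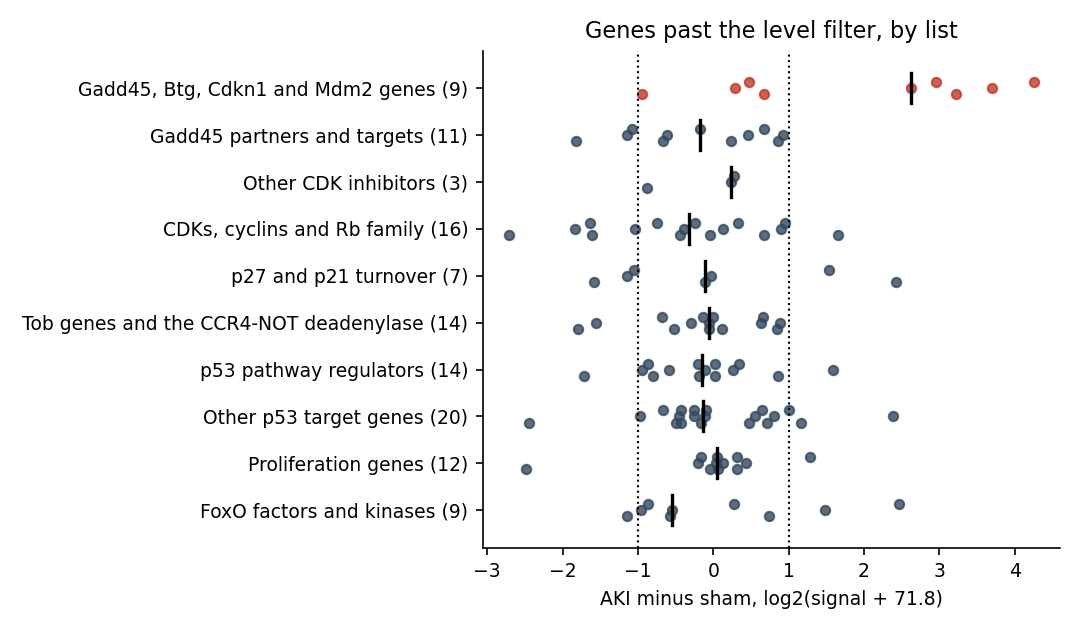
AKI minus sham difference of the genes past the level filter in the 9 genes and 9 related lists (cell type markers and reference genes not drawn), with the number of genes in parentheses, a point for each gene, a black bar at the list median and dotted lines at 2-fold. The median of the 9 genes is 2.63, and the medians of the 9 related lists drawn lie between -0.55 and 0.24.

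With 2% of probe sets trimmed from each end, the mean signal was 500.00 on both arrays, so the authors had scaled them alike, which removes any difference in total mRNA. Hepatocyte markers were abundant, with Alb at 124515.9 and 98303.4, and all 6 lay between -0.83 and -0.12. Of 5 measured neutrophil markers, S100a8 (3.17) and S100a9 (2.72) were at least 2-fold higher and Mpo, Csf3r and Mmp8 lay between -0.03 and 0.31. The summed signal of these 5 was 1744.6 after sham surgery and 5237.2 after AKI, with none at 0. The summed signal of 7 macrophage markers was 12568.8 and 8051.7, with Marco (1.46) at least 2-fold higher and Clec4f (-1.37) and Cd5l (-1.24) lower. That of 6 endothelial markers was 7791.8 and 4816.4, with Lyve1 (1.79) higher and Stab1 (-1.55) and Clec4g (-2.08) lower. Of the stellate markers only Lrat (-1.74) passed 2-fold, and the others past the filter lay between -0.31 and 0.92. The summed signal of the 6 stellate markers was 11686.3 and 17979.7. Dcn alone was higher in this sum, at 7724.9 and 14722.2, and Lrat, Des, Col1a1, Reln and Pdgfrb were each lower after AKI. Des and Reln each had another probe set that was higher, at 1.44 and 0.92. Of the cholangiocyte markers Sox9 (2.58) passed 2-fold and Epcam was at 0.40. Krt19 and Krt7 were below the filter, and Krt7 read 102 after sham surgery and 30.2 after AKI. The B cell markers lay between -0.05 and 0.22, and the T cell markers other than Cd8a (0.82) were below the filter. The part of these cells in the differences of the Gadd45, Btg and Cdkn1 genes was not tested. In whole liver, a change in the number of cells of a type and a change in RNA per cell cannot be told apart.

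Scaling by a common shift moved all genes together. Centring on 18 hybridization control probe sets put the median of all genes at 0.28, and centring on 12 measured reference genes put it at -0.22. Past 2-fold were then 2211 genes upwards and 1066 downwards, or 1001 and 2221, against 1370 and 1635 with the authors' scaling. The sign of all 9 genes was the same in every setting in which the gene was measured, including these.

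**Figure D4:**
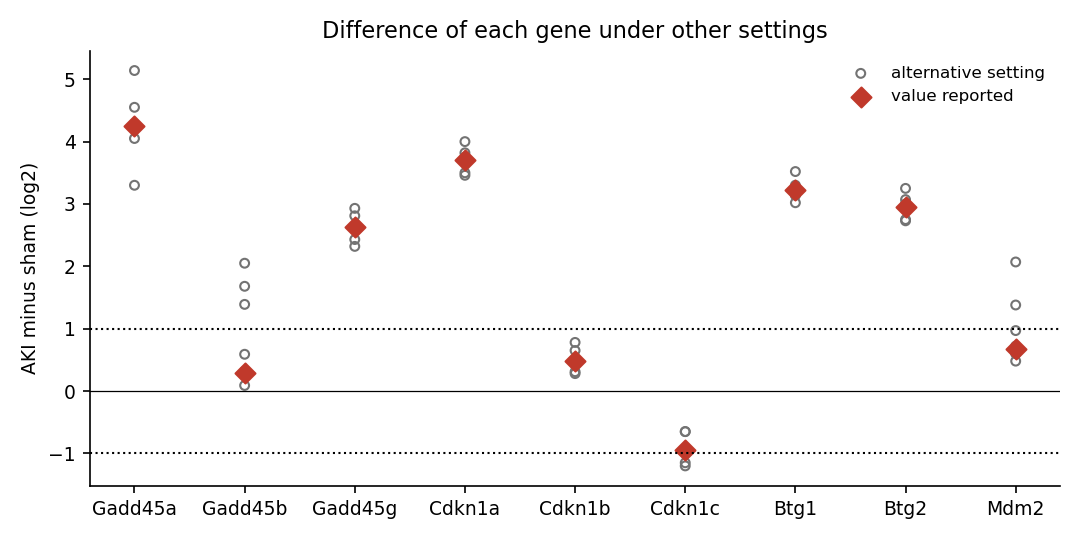
AKI minus sham difference of each of the 9 genes on the log2 scale, with a diamond at the value reported, open circles at 13 alternative settings where the gene could be measured, and dotted lines at 2-fold. Gadd45a ranges from 3.30 to 5.14, Gadd45b from 0.09 to 2.05 and Mdm2 from 0.48 to 2.07, while Cdkn1a, Btg1, Btg2 and Gadd45g stay above 2.3.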

How the data were processed

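Biotinylated cRNA was prepared from 8 ug of Trizol-extracted total RNA, per the labels' protocols. The authors deposited 1 linear signal intensity for each probe set and array, ranging between 0.6 and 127786.6. The software and build are not given in the sources used here. Of 45101 probe sets, 64 are array controls, 34945 carry 1 gene symbol in the platform annotation, 932 several and 9160 none. RefSeq gene numbers matched 34741 of the 34945, with 0 symbols differing.

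The pseudocount, 71.8, is the 25th percentile of the table. The level filter is the median of non-control probe sets. With 1 array per group no test was made. The members and related lists were chosen with earlier results of these data known. All members were named, with up to 4 genes of each related list by size, extended where a count was 5 or fewer, and 2 genes either side of Cdkn1a and Gadd45a in rank. Genes named beyond this rule, such as Map3k4, Pcna, Prmt1, Skp2, Mki67, Mdm4, Ccng1, Bbc3, Sesn1, Zmat3, Tigar and Sesn2, were picked with their values in view. Alternatives were 5 scalings, pseudocounts of 1 and 228.7, 3 choices of probe set and 3 filters. The computation was tested on simulated data. Python 3.11.15, numpy 2.4.6, pandas 2.3.3, scipy 1.17.1 and statsmodels 0.14.6 were used.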

Additional observations from a re-analysis of the deposited data

How the results depend on the processing

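With no replicate array, precision is limited by the number of arrays. Across 13 alternatives the count of the 9 genes at least 2-fold higher was 4 to 7. It was 6 with a pseudocount of 228.7, and 7 with averaged probe sets or with the probe set of highest mean signal. The last and the filter on the mean level, with 5 of 8, were added after the data were seen. It was 5 of 7 measured genes with the filter at the 75th percentile, which leaves out Cdkn1b and Cdkn1c, and 4 of 7 without probe sets of the suffix _s_at, _x_at or _a_at, which leaves out Gadd45g and Mdm2. The count at least 2-fold lower was 1, Cdkn1c, with centring on reference genes and with a pseudocount of 1, against 0. The median of the measured genes ranged from 2.32 to 2.93 or, with the stricter filter or without those suffixes, was 2.95. Gadd45a was at 5.14 with a pseudocount of 1 and 3.30 with one of 228.7. Gadd45b was at 1.39 and Mdm2 at 1.38 as means of their probe sets, and Gadd45b was at 1.68 with a pseudocount of 228.7, where another probe set stands for it. No paired analysis was possible because each group is 1 pool on 1 array.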
